A study of Mus musculus with 2 samples.

Results

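Transcripts of coenzyme Q synthesis were measured in mouse heart by long-read RNA sequencing, together with Pnisr, the gene that lies just upstream of the coenzyme Q gene Coq3. The 10 genes described are Coq2, Coq3, Coq4, Coq5, Coq6, Coq7, Coq8a, Coq9, Coq10a and Pnisr, found by the gene name that the authors gave each transcript model, out of 15410 annotated genes with at least 1 read. The set was selected on read counts of these libraries: Pnisr and Coq3 were chosen by their opposite ratios of reads between the libraries, and the others as genes of the same pathway. The ratios between the libraries are therefore descriptions for all 10 genes, and where calls of the test over all genes are counted for them, nothing is read from those counts. The series holds 1 group of 2 libraries from the heart of male B6CASTF1/J mice, a first-generation cross of C57BL/6J and CAST/EiJ, aged 18 to 20 months. Each library started from 2 µg of RNA. The libraries are labelled biological replicates 1 and 2 but carry the same donor identifier, so the spread between them may be technical and no contrast of conditions exists.

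Replicate 1 held 688861 reads on mouse models and replicate 2 held 1003999. Levels are given as CPM, reads per 1000000 mouse reads of the library, and a count of 0 allows up to 4.36 CPM in replicate 1 and 2.99 CPM in replicate 2. The tissue label was checked against fixed markers. The 7 cardiomyocyte genes were all detected and summed to 33824 and 35862 CPM, and all 5 skeletal muscle genes were without a read. The summed fibroblast markers were 684 and 511 CPM, the macrophage markers 232 and 198 CPM, the endothelial markers 215 and 294 CPM and the adipocyte markers 52.3 and 8.96 CPM in the order of the replicates, with the adipocyte gene Lep at 0 throughout. In bulk tissue, fewer cells of a type and less RNA per cell cannot be told apart. The part of these marker differences in the results that follow was not tested.

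Coenzyme Q (ubiquinone) is a lipid of the inner mitochondrial membrane that takes electrons from complexes I and II and several other dehydrogenases and passes them to complex III. The heart depends on it for oxidative phosphorylation. Its ring is joined to an isoprenoid tail by Coq2 and is then modified by a membrane-associated set of Coq proteins, among them the hydroxylases Coq6 and Coq7 and the methyltransferases Coq3 and Coq5. Pnisr encodes a serine/arginine-rich protein of nuclear speckles that interacts with pinin and has no known step in coenzyme Q synthesis.

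Both Pnisr (mm10, chr4:21847583-21876475) and Coq3 (chr4:21879673-21912162) lie on the plus strand, 3197 bases apart, and their annotated exons do not overlap. The results at this locus turn on the last exon of Coq3, exon 7 of the transcript Coq3-201 (chr4:21910419-21912162, 1744 bases). Its first bases code for the end of the Coq3 protein. They are shown because most reads of the locus were given to models that cover them and the start of the untranslated region that follows. The stop codon is in capitals (chr4:21910419-21910639, plus strand, GENCODE M21 transcript sequence).
Coq3 last exon, coding part: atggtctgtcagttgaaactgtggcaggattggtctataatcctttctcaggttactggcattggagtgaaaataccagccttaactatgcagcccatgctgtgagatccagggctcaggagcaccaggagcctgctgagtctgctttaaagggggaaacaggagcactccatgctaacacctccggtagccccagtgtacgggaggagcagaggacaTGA

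The locus also gave a junction that joins the genes, read once. The annotated junction of Coq3 and the joined one are set side by side, with 15 bases on each side of the junction and the bases of Coq3 exon 2 in capitals.
Coq3 exon 1 to exon 2: taacttcacggtcggCTTACTCAGGGACGC
Pnisr to Coq3 exon 2: gcacattgtggctgtCTTACTCAGGGACGC
The capitals are the same in both, and the lower-case bases come from Coq3 exon 1 in the first line and from the 3′ part of Pnisr in the second.

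By the deposited names, Pnisr was high in replicate 1 and low in replicate 2, and Coq3 the reverse. Pnisr had 142 reads in replicate 1 (206 CPM) and 15 reads in replicate 2 (14.9 CPM). Coq3 had 47 reads (68.2 CPM) in replicate 1 and 376 reads (375 CPM) in replicate 2. The log2 ratio of replicate 2 to replicate 1 was -3.79 for Pnisr (95% exact interval -4.66 to -3.02) and 2.46 for Coq3 (2.02 to 2.93). These intervals, like all others given for reads, cover counting error only.

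The exons that the models cover gave another picture, since the model that held most of the Pnisr reads contains no base of a Pnisr exon. In replicate 1, 136 of the 142 reads named Pnisr belonged to a model of 1 exon and 524 bases (chr4:21910419-21910942) that begins at the first base of Coq3 exon 7 and lies wholly inside it. In replicate 2, 319 of the 376 reads named Coq3 belonged to a model of 1 exon and 521 bases (chr4:21910419-21910939) with the same start and an end 3 bases away. The same stretch of Coq3 was thus counted under the name Pnisr in one library and under the name Coq3 in the other. Both models are of the class incomplete splice match (ISM), which the authors' tool gives to a model that matches only part of the exons of a longer one.

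The deposited annotation of each library lists the longer models that such a partial model can come from. For the 136-read model it lists 3: a 17-exon model named Pnisr, a 7-exon model named Coq3 and a 6-exon model named Pnisr, each with 1 read. For the 319-read model of replicate 2 it lists 3 models, all named Coq3 and each with 1 read. The 17-exon model (chr4:21848058-21910942) was the only model of either library that overlapped exons of both genes. It covers 11 exons on Pnisr (2868 bases on Pnisr exons) and then Coq3 exons 2 to 7 (1307 bases), and its junction skips 17775 bases from chr4:21875033 to chr4:21892809. It is of the class new not in catalogue (NNC), a model with a splice site absent from the annotation. The 6-exon model holds the Coq3 part of the same exons, also 1307 bases and none of Pnisr. No model of replicate 2 overlapped exons of both genes, which allows up to 2.99 CPM there, against 1.45 CPM for the 1 read of replicate 1.

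**Figure D1:**
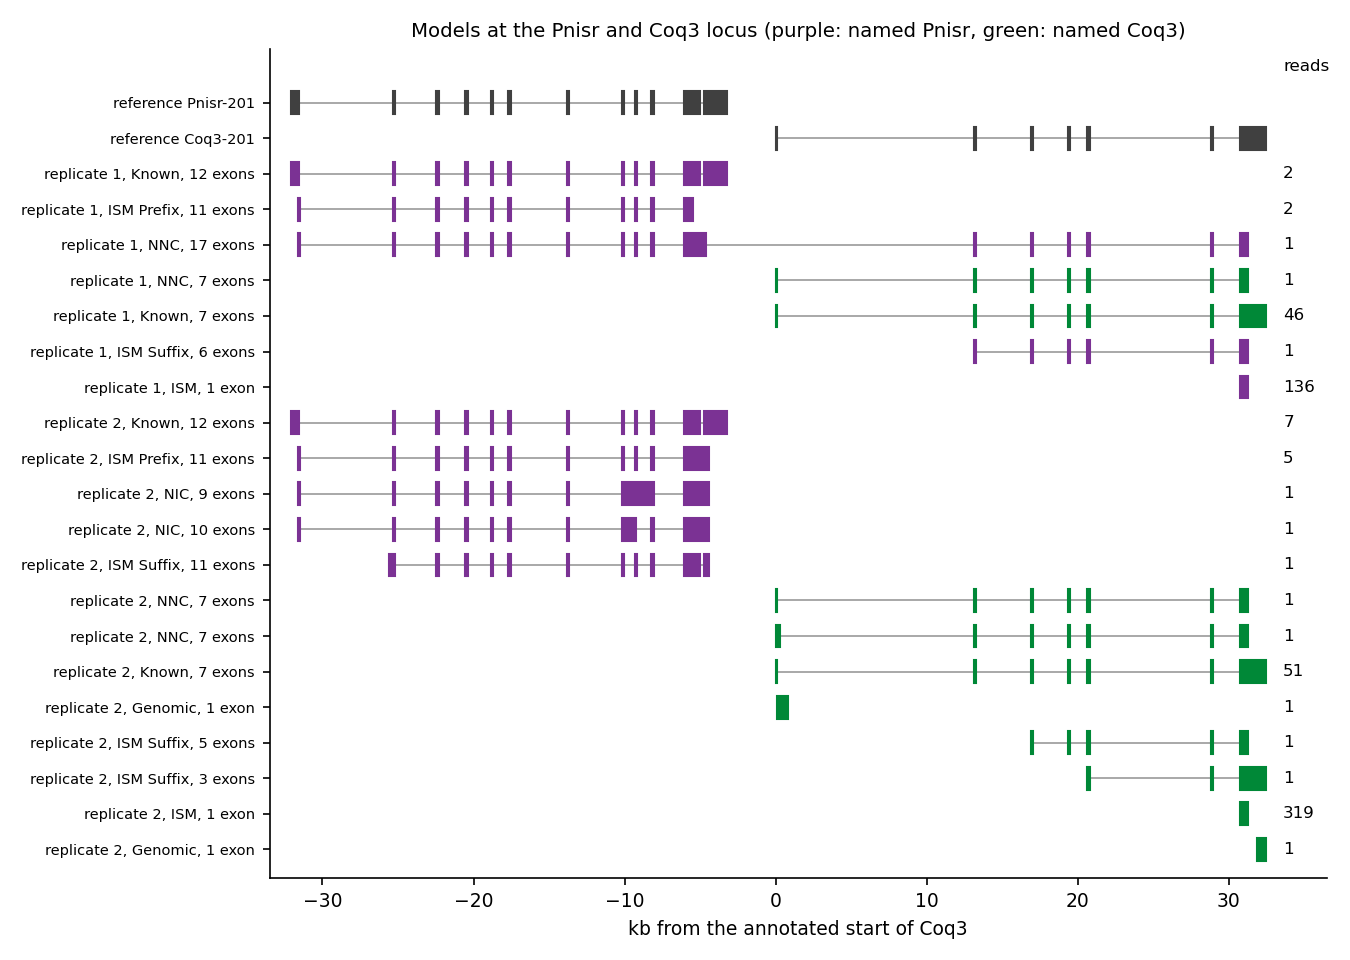
Exon maps of all models at the locus in each library, on an axis of kb from the annotated start of Coq3, with the number of reads at the right. Boxes are exons, dark boxes are the annotated Pnisr-201 and Coq3-201, purple is the name Pnisr and green the name Coq3. The single-exon model at the far right carries 136 reads under the name Pnisr in replicate 1 and 319 reads under the name Coq3 in replicate 2.

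When each model was given to the gene whose exons it overlaps most on its strand, Coq3 had 184 reads in replicate 1 and 376 in replicate 2, and Pnisr had 5 and 15. Coq3 then stood at 267 and 375 CPM (321 ± 75.9, SD, n = 2) and Pnisr at 7.26 and 14.9 CPM (11.1 ± 5.43, SD, n = 2). The log2 ratio of Coq3 became 0.49 (0.23 to 0.75) and that of Pnisr 1.04 (-0.49 to 2.86), so the ratio of Pnisr changed sign and its interval spans 0. With both genes pooled, the locus had 189 and 391 reads and a log2 ratio of 0.51 (0.25 to 0.76).

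The pooled ratio came from the single-exon model. That model stood at 197 CPM in replicate 1 and 318 CPM in replicate 2, a log2 ratio of 0.69 (0.39 to 0.99). The spliced models on Coq3 exons alone had 48 and 55 reads (69.7 and 54.8 CPM), a log2 ratio of -0.35 (-0.93 to 0.24). Spliced models on Pnisr exons alone had 4 and 15 reads (5.81 and 14.9 CPM), a log2 ratio of 1.36 (-0.29 to 3.41). Among reads on annotated models only, the pooled ratio was below 0, at -0.21 (-0.79 to 0.37) from 48 and 58 reads. Of these parts of the locus, only the single-exon model has an interval that excludes 0.

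**Figure D2:**
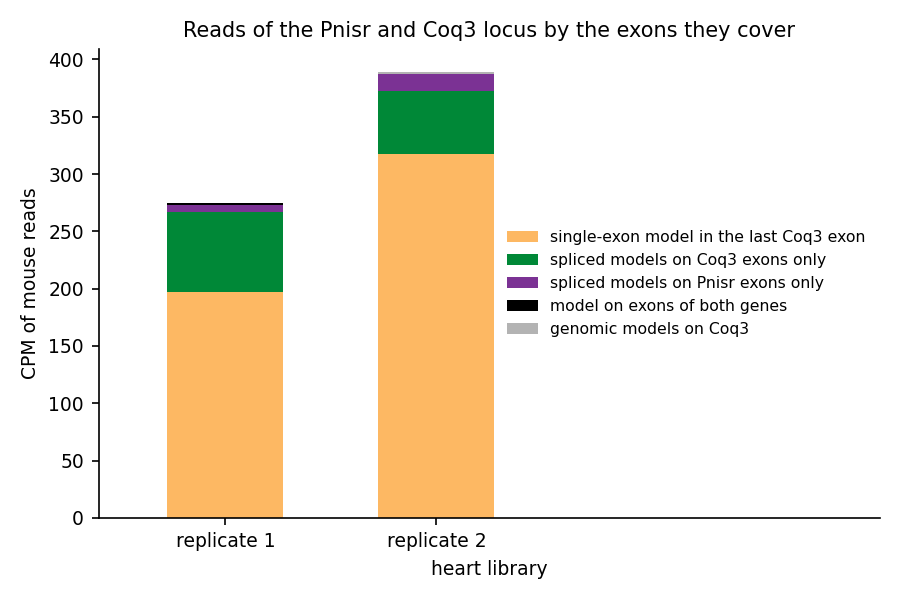
Stacked bars of the CPM of the locus in each library, split by the exons that the models cover. The single-exon model in the last Coq3 exon makes up 197 of 274 CPM in replicate 1 and 318 of 389 CPM in replicate 2, and the spliced Coq3 models 69.7 and 54.8 CPM.

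Most Coq3 reads were given to a short model, and the lengths of the reads themselves were not known. By exon position, the single-exon model held 73.9% of the Coq3 reads in replicate 1 (136 of 184, 95% Clopper-Pearson interval 66.9 to 80.1) and 84.8% in replicate 2 (319 of 376, 80.8 to 88.3). The full transcript Coq3-201, with 7 exons and 2651 bases, had 46 reads in replicate 1 and 51 in replicate 2. Among the 2007 genes that had 50 or more reads in both libraries, Coq3 ranked 6 in replicate 1 and 3 in replicate 2 by the share of its reads on single-exon incomplete models, where the median gene had 0%. This ranking describes a gene that was chosen with its values known.

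The end of the single-exon model was shared by other new models of its library. The files hold an end for each model and not for each read. The shared base is therefore not separate evidence of an early end. Of 7 new spliced models that reach Coq3 exon 7 in the libraries together, 6 end at the same base as the single-exon model of their library. That base lies 1220 bases before the annotated end of Coq3-201 in replicate 1 and 1223 in replicate 2. Coq3 has 2 annotated transcripts, and whether the other one ends near this base was not checked. Reads given to an annotated model take that model's ends in the files: all 14991 annotated models of replicate 1 and all 16446 of replicate 2 had the annotated length and ends. The files therefore do not show where the 46 and 51 reads of Coq3-201 ended. The last 30 bases before each end are shown, with the polyadenylation signal AATAAA in capitals where it is present (plus strand, ending at chr4:21910942, chr4:21910939 and chr4:21912162).
end of the single-exon model, replicate 1: acatatgctgatatttattgatttcaactg
end of the single-exon model, replicate 2: gaaacatatgctgatatttattgatttcaa
end of Coq3-201: gtcagcctcaAATAAAcccttccttctatg
In the 40 bases before the annotated end AATAAA was found, and in those before either early end neither AATAAA nor the variant ATTAAA was found, searched on the transcript strand only. For comparison, 39.3% of 58791 annotated protein-coding transcripts hold AATAAA in their last 40 bases and 11.1% hold ATTAAA, against 1.63% and 1.16% of all 40-base windows laid end to end over these transcripts. The 20 bases after each early end hold 3 A. A match or its absence describes these letters only.

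Names at odds with exons were rare in the libraries as a whole. In replicate 1, 96 models (588 reads, 0.0884% of reads on annotated genes) had no overlap with the exons of their named gene while overlapping another gene on the same strand, and in replicate 2 there were 126 such models with 827 reads (0.0860%). The single-exon model named Pnisr had the most reads of the 96 in replicate 1, and no model of the 10 genes was among the 126 of replicate 2. Counting by exon position instead of by name moved 892 reads in replicate 1 and 1385 in replicate 2.

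Across all annotated genes with at least 10 reads in the libraries together, 297 of 8836 (3.36%) differed between the libraries beyond counting error by an exact binomial test with Benjamini-Hochberg adjustment at 0.05, 120 of them higher (1.36% of the genes tested) and 177 lower (2%) in replicate 2. With edgeR's TMM factors, 168 of 292 were higher, since this scaling moved the median log2 ratio of all tested genes from -0.06 to 0.00. Of the 10 genes, 3 were called: Coq3 higher, Pnisr lower and Coq2 lower in replicate 2. With TMM or DESeq2 scaling Coq2 was not called. By exon position 286 of 8823 genes were called (3.24%), with 115 higher (1.3%), and 2 of the 10 genes, Coq3 higher and Coq2 lower. The genes were chosen with this comparison known, so nothing is read from these counts. Of the 297 calls made by name, 13 were not made by exon position, Pnisr among them, and 284 were made both ways with no change of direction.

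Levels were compared between genes per kilobase of the most read annotated transcript of each, by exon position. A long read is counted once whatever the length of its transcript. This division lowers genes with long transcripts, and the order depends on it. By mean CPM alone Coq8a (727) was next to Coq9 (744) and above Coq10a (424), Coq5 (340), Coq3 (321), Coq2 (202) and Coq7 (191). Most Coq3 reads are on the single-exon model. Coq9 was highest at 453 CPM per kb in replicate 1 and 379 in replicate 2 (416 ± 52.5, SD, n = 2), followed by Coq10a (296 ± 19.6), Coq7 (209 ± 19.8), Coq8a (180 ± 9.95), Coq5 (167 ± 29.2), Coq3 (121 ± 28.6), Coq2 (116 ± 31.5), Coq6 (64.5 ± 11.3) and Coq4 (11.9 ± 2.72). Pnisr was below them all at 1.60 and 3.29 CPM per kb. Of the 9 pairs of neighbours in this order 2 overlapped between libraries, Coq8a with Coq5 and Coq3 with Coq2, and 7 did not. Without regard to length, the 9 coenzyme Q genes summed to 3221 CPM in replicate 1 and 2930 CPM in replicate 2 (3076 ± 206, SD, n = 2).

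**Figure D3:**
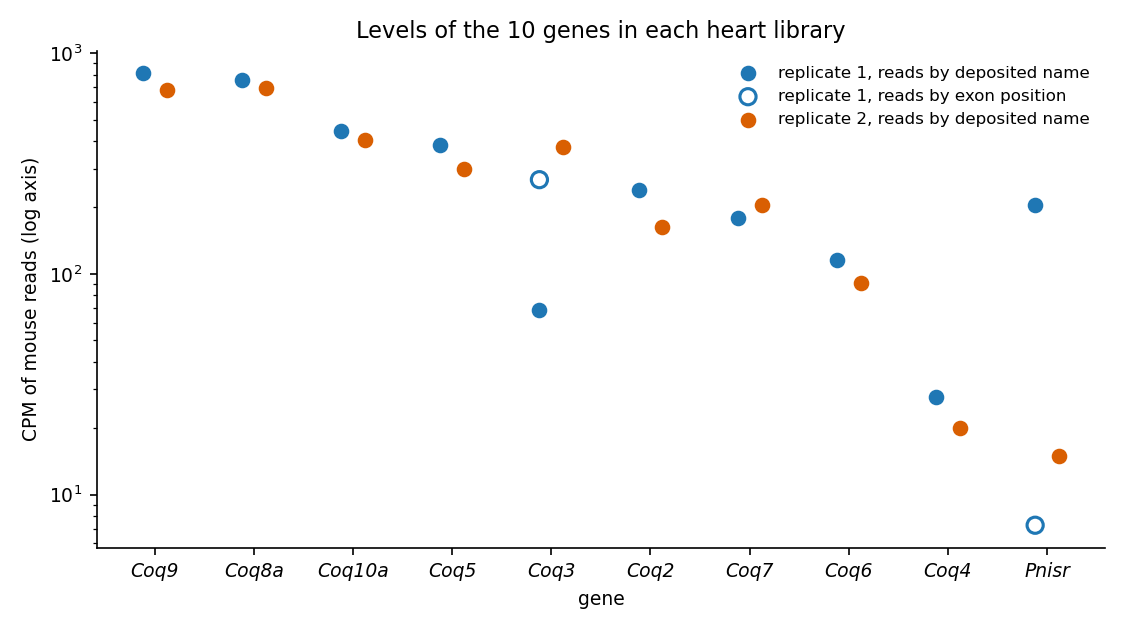
CPM of the 10 genes in each library on a log axis, ordered by mean CPM, with filled points for reads by deposited name and open points for replicate 1 by exon position where that differs. Coq3 of replicate 1 moves from 68.2 to 267 CPM and Pnisr from 206 to 7.26 CPM, and the other 8 genes do not move.

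Coq2, the prenyltransferase that attaches the isoprenoid tail to the ring precursor, had 166 reads in replicate 1 (241 CPM) and 164 in replicate 2 (163 CPM). Its level was lower in replicate 2, with a log2 ratio of -0.56 (-0.88 to -0.24). Its most read model was Coq2-201 with 7 exons, 86.1% of reads in replicate 1 and 87.8% in replicate 2 (87.0% ± 1.17, SD, n = 2). A processed pseudogene, Gm6728, is 96.5% identical to Coq2-201 over 1006 bases, and no read was given to it in either library.

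A new Coq2 model of 6 exons, built from annotated splice sites, leaves out exon 2 (chr5:100667892-100668058, 167 bases, minus strand). Over all spliced models with an exon on each side of it, the exon was left out in 15 of 160 reads in replicate 1 (9.38%, 5.34 to 14.99) and 6 of 155 in replicate 2 (3.87%, 1.43 to 8.23), and these intervals overlap. The length of the exon leaves a remainder of 2 when divided by 3. The annotated junction and the skipping junction are shown with the downstream exon in capitals.
Coq2 exon 1 to exon 2: tggacaagcccatagGAACCTGGCTGCTGT
Coq2 exon 1 to exon 3: tggacaagcccatagGTTACAAGGACAGCA
Skipping was read in both libraries.

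The ring-modifying enzymes other than Coq3 are Coq4, Coq5, Coq6 and Coq7. Coq6, a flavin-dependent hydroxylase, had 80 and 91 reads (116 and 90.6 CPM) and a log2 ratio of -0.36 (-0.81 to 0.09). Coq5, the C-methyltransferase, had 263 and 299 reads (382 and 298 CPM), higher in replicate 1, with a log2 ratio of -0.36 (-0.60 to -0.11). Coq7, the hydroxylase of a late step, had 123 and 205 reads (179 and 204 CPM), a log2 ratio of 0.19 (-0.14 to 0.53), and was the only gene besides Coq3 with a higher CPM in replicate 2 by name. Coq4, a structural and catalytic member of the complex, had 19 and 20 reads (27.6 and 19.9 CPM), a log2 ratio of -0.47 (-1.45 to 0.52), whose interval includes 0.

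These 4 genes were read mainly as their annotated forms. Coq5-201 took 97.3% ± 1.51 of the Coq5 reads, Coq7-201 93.3% ± 3.22, Coq6-201 87.7% ± 0.291 and Coq4-201 79.3% ± 8.0 (SD, n = 2 each). Coq6 had 1 further model with 5 or more reads in a library, the last 2 exons alone, with 5 and 6 reads. For Coq7 it was Coq7-204, annotated as a retained intron, with 0 and 5 reads.

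Coq9, Coq8a and Coq10a support the pathway rather than modify the ring. Coq9, a lipid-binding protein that works with Coq7, had 558 and 680 reads (810 and 677 CPM, 744 ± 93.9, SD, n = 2), with a log2 ratio of -0.26 (-0.42 to -0.09). Coq8a, an atypical kinase-like ATPase needed for the complex, had 520 and 701 reads (755 and 698 CPM, 727 ± 40.1, SD, n = 2) and a log2 ratio of -0.11 (-0.28 to 0.05). Coq10a, which encodes a START-domain protein that binds coenzyme Q, had 306 and 406 reads (444 and 404 CPM, 424 ± 28.2, SD, n = 2) and a log2 ratio of -0.14 (-0.35 to 0.08). The intervals of Coq8a and Coq10a include 0 and that of Coq9 does not.

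Coq8a had the most varied set of models, 60 of the 165 models that the 10 genes had in the libraries together. Of these 60, 21 were read in both libraries and 30 had 1 read in all. Coq8a-201 took 367 and 512 reads (70.6% and 73.0%, 71.8% ± 1.74, SD, n = 2). Coq8a-217 took 43 and 45 reads. These transcripts have the same coding sequence start and differ in a first exon upstream of it (chr1:180195873-180196020 in Coq8a-201 and chr1:180193436-180193485 in Coq8a-217, minus strand). Spliced reads that reach upstream of the second exon were grouped by the splice site that ends their first exon. That of Coq8a-201 was used in 377 of 447 reads in replicate 1 (84.3%, 80.6 to 87.6) and 528 of 596 in replicate 2 (88.6%, 85.8 to 91.0). That of Coq8a-217 was used in 10.3% (7.63 to 13.5) and 8.39% (6.29 to 10.9). A first exon at chr1:180193603-180193662, which the new models combine with the rest of Coq8a, was used in 11 reads in replicate 1 (2.46%, 1.23 to 4.36) and 5 in replicate 2 (0.839%, 0.273 to 1.95). The intervals of the libraries overlap for all 3 first exons.

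Most new Coq8a models shared a 3′ end that lies before the end of Coq8a-201. Here too the files hold an end for each model and not for each read. Of the reads on models that are not annotated, 92 of 110 in replicate 1 (83.6%) and 134 of 144 in replicate 2 (93.1%) were on models that end at chr1:180166560, 1322 bases before the end of Coq8a-201 and of the gene. Whether another of the 17 annotated Coq8a transcripts ends at this base was not checked. The models that end there numbered 34 and 37, with 1 to 18 exons. The 30 bases before this end are shown (minus strand, chr1:180166560-180166589).
early end of new Coq8a models: gggaaggaggtggccccacttatgacctgg
The 40 bases before it hold neither AATAAA nor ATTAAA, and the 20 bases after it hold 1 A. For Coq2 and Coq9 all new models end at the annotated end of the gene. All new Coq4 models (4 and 3 reads) end 949 bases before the end of their gene, and the new Pnisr models of replicate 2 (8 reads) end 1219 bases before it.

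Coq9 and Coq10a each had small annotated alternatives. Coq9-201 took 88.7% of the Coq9 reads in replicate 1 and 84.3% in replicate 2 (86.5% ± 3.14, SD, n = 2), and Coq9-208, annotated as a retained intron of 368 bases, took 8 and 25 reads. Coq9-204 leaves out exon 6 (chr8:94851851-94851955, 105 bases, a multiple of 3) and had 5 and 9 reads, 0.962% (0.313 to 2.23) and 1.45% (0.665 to 2.73) of the reads that span the exon. The junctions are shown with the downstream exon in capitals.
Coq9 exon 5 to exon 6: gagcactggccccggGCCCTCAGCATCCTC
Coq9 exon 5 to exon 7: gagcactggccccggTTTAACTGGTACACC
Skipping of this exon was read in both libraries at shares whose intervals overlap.

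Coq10a-207 took 281 and 359 of the Coq10a reads (91.8% and 88.4%, 90.1% ± 2.41, SD, n = 2). Coq10a-205, with another first exon, had 4 and 12 reads. In Coq10a-201 the acceptor of exon 3 lies 30 bases upstream (chr10:128365216-128365245, minus strand), a length that is a multiple of 3. The reading frame of these bases was not checked. The added bases are in capitals, followed by the start of the shorter exon.
Coq10a exon 3, extra bases with the 15 bases that follow: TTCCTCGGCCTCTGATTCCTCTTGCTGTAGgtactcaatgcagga
The long form was read 6 times in 296 reads that use either acceptor in replicate 1 (2.03%, 0.747 to 4.36) and 8 times in 383 in replicate 2 (2.09%, 0.906 to 4.07), and these intervals overlap.

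The share of the most read model was tested by Fisher's exact test in the 4087 genes that had 20 or more reads in both libraries, of which 77 (1.88%) differed after Benjamini-Hochberg adjustment. Of the 10 genes, 8 were tested. Coq3 was called, which restates the naming of its single-exon model and is a description only. For Coq2, Coq5, Coq6, Coq7, Coq8a, Coq9 and Coq10a the adjusted p of the Fisher test lay between 0.47 for Coq9 and 1 for Coq2. Neither Coq4 nor Pnisr had enough reads.

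**Figure D4:**
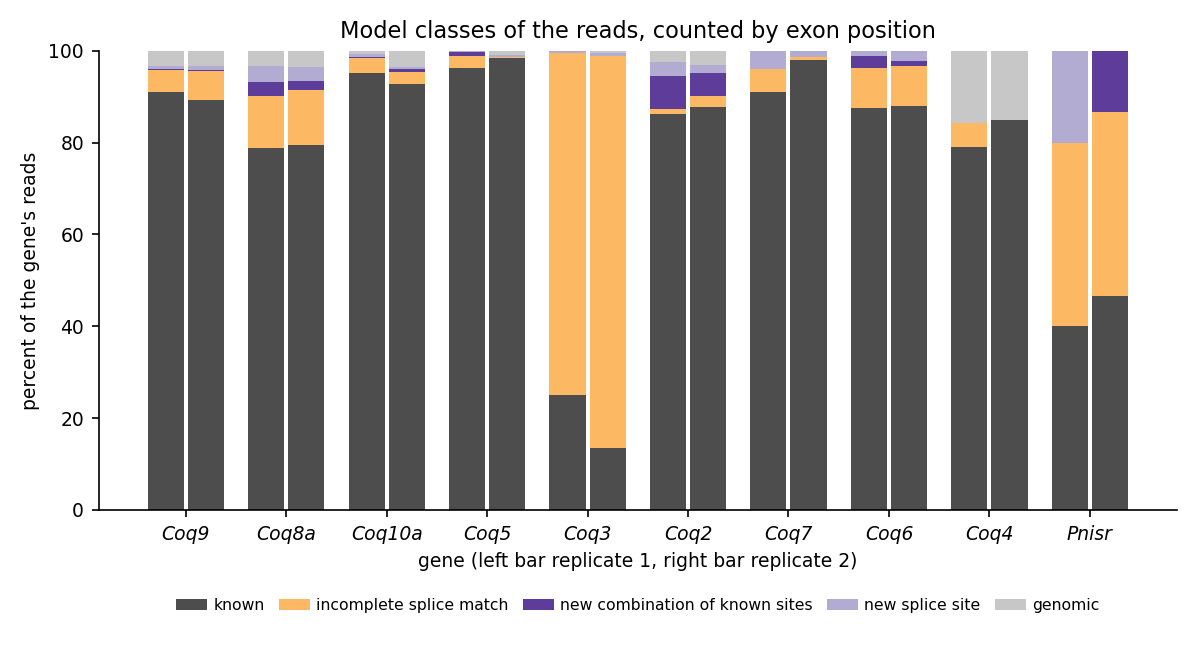
Share of each gene's reads in each class of model, counted by exon position, with the left bar for replicate 1 and the right bar for replicate 2. Annotated models hold 78.8% or more of the reads of 8 of the 9 coenzyme Q genes in both libraries, while in Coq3 they hold 25.0% and 13.6% and incomplete splice matches 74.5% and 85.4%.

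The share of reads on annotated models was 74.8% in replicate 1 and 72.4% in replicate 2 over all annotated genes, counted by name. Of the coenzyme Q genes, counted by exon position, Coq5 was highest in both libraries (96.2% and 98.3%). Coq10a had 95.1% and 92.9%, Coq7 91.1% and 98.0% and Coq9 91.0% and 89.3%. By exon position Coq3 was the only one below the value over all genes in both libraries. By name it had 97.9% in replicate 1, where the single-exon model is named Pnisr, and 13.6% in replicate 2. Pnisr had 2 and 7 reads on Pnisr-201 with 12 exons. An 11-exon model of 2068 bases that ends before the last exon had 2 reads in replicate 1, and an 11-exon model of 3101 bases whose final exon runs on through the last intron into the last exon had 5 reads in replicate 2.

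Of 10 other listed genes of coenzyme Q synthesis 9 had enough reads for the test. By the binomial test 0 were called, also at an unadjusted p of 0.05, beside 3.36% of all genes tested that were called. Their median log2 ratio was -0.14, beside -0.06 for all genes tested. Stard7, which carries phosphatidylcholine and coenzyme Q between membranes, was highest by CPM (298 and 271 CPM). The ferredoxins Fdx1 (100 and 90.6 CPM) and Fdx2 (61 and 39.8 CPM) and the phosphatase Pptc7 (61 and 54.8 CPM) followed. Pdss2 (34.8 and 36.9 CPM) and Pdss1 (27.6 and 28.9 CPM) are the subunits of the synthase of the isoprenoid tail. Hpdl, which acts in the supply of the ring precursor, had 4 and 3 reads. The paralogues Coq8b and Coq10b were below Coq8a and Coq10a in both libraries, Coq8b with 11.3 and 8.68 CPM per kb against 187 and 173 for Coq8a, and Coq10b with 11.7 and 12.6 CPM per kb against 310 and 282 for Coq10a.

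The mevalonate pathway, which supplies the isoprenoid units, was read at mean levels from 7.84 to 32 CPM. All 10 listed genes were tested. By the binomial test 0 were called, also at an unadjusted p of 0.05, beside 3.36% of all genes tested that were called. Their median log2 ratio was 0.01. Hmgcs1, the HMG-CoA synthase, had 39.2 and 24.9 CPM. Fdft1, the first enzyme of the sterol branch, had 29.0 and 32.9 CPM. Ggps1 (17.4 and 17.9 CPM), Idi1 (11.6 and 15.9 CPM), Mvk (7.26 and 14.9 CPM) and Pmvk (10.2 and 9.96 CPM) complete the 6 genes with the highest mean CPM.

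Of the enzymes that reduce or oxidise coenzyme Q, 18 of 19 listed genes were tested. The 18 listed genes with reads had a median of 666 CPM per kb in replicate 1 and 544 in replicate 2, against 187 and 146 for the 9 coenzyme Q genes by exon position, and no test was made of this difference. These medians also depend on the division by length. By the binomial test 7 were lower in replicate 2 and 1 was higher, beside 2% and 1.36% of all genes tested, with a median log2 ratio of -0.20. This test calls smaller ratios in genes with more reads, and the called genes of this list have many. With a minimum of 50 reads in the libraries together, 8.38% of 4032 genes were called in either direction. Of the 7 cardiomyocyte markers, 2 were called higher and 2 lower. The complex III subunit Uqcrc1 had the highest CPM of them, at 5043 and 3975 CPM (log2 ratio -0.34, adjusted p 6.64e-22). The complex I subunit Ndufs7 was higher in replicate 2, at 2838 and 3322 CPM (0.23, adjusted p 2.90e-06).

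Also called lower were the complex III genes Cyc1 (2336 and 1912 CPM), Uqcrfs1 (2474 and 2222 CPM) and Uqcrc2 (1228 and 999 CPM), the complex II subunit Sdha (1983 and 1615 CPM) and Etfa of the electron transfer flavoprotein (1331 and 1142 CPM). With TMM or DESeq2 scaling 4 of the 7 were called lower: Cyc1, Sdha, Uqcrc1 and Uqcrc2. Sdhb (2127 and 2131 CPM) was not called. The choline dehydrogenase Chdh had no read. These p-values compare the 2 libraries and set the difference against counting error only.

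**Figure D5:**
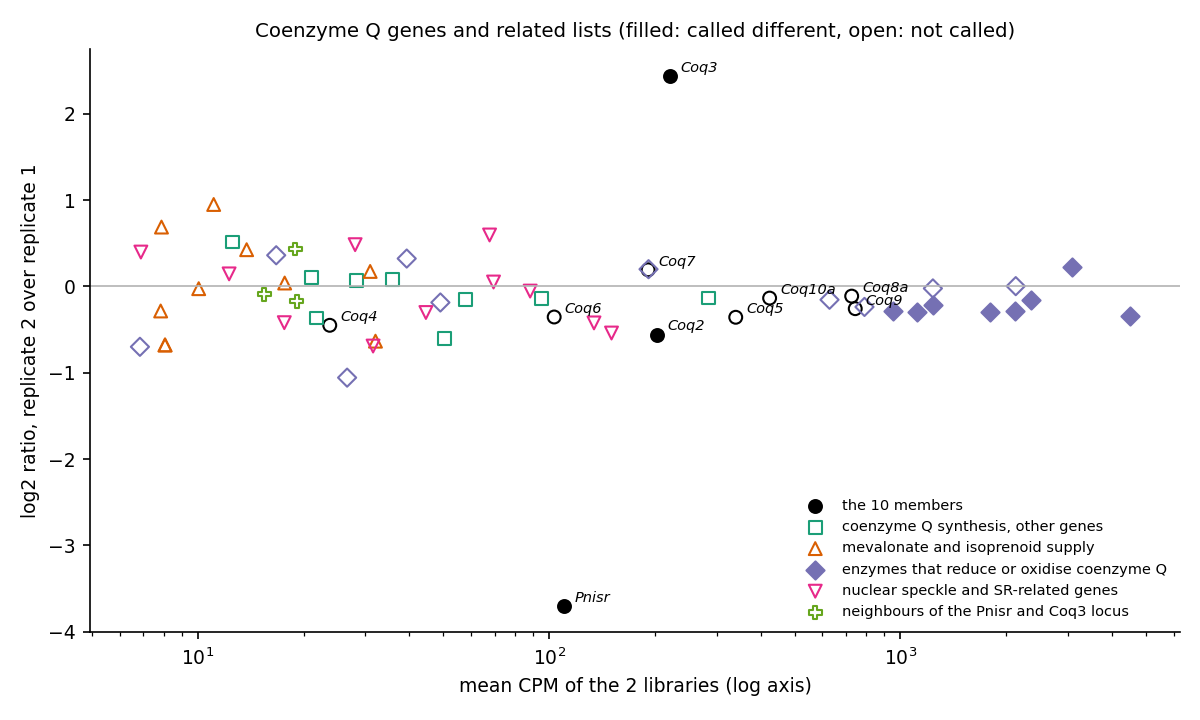
Log2 ratio of replicate 2 to replicate 1 (with 1 CPM added to each level) against the mean CPM on a log axis, by deposited name, for the 10 genes and the tested genes of the other lists. Filled symbols were called different by the binomial test and open symbols were not, and Coq3 (2.44) and Pnisr (-3.70) lie outside the range of all others shown.

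Nuclear speckle and serine/arginine-rich genes were listed as the company of Pnisr. Of 13 genes 12 were tested. Pnisr, which was chosen by this ratio, was called lower by name and was not called by exon position. The other 11 were not called by the binomial test, beside 3.36% of all genes tested that were called. An unadjusted p under 0.05 was found for 4 genes: Pnisr, Rbm39 and Rsrp1, lower in replicate 2, and Son, higher. The share of all genes at that threshold is not given, so nothing is read from this count. The median log2 ratio of the list, with Pnisr by name, was -0.18, beside -0.06 for all genes tested. Rbm39, a splicing factor, had 179 and 123 CPM, and Rsrp1 154 and 115 CPM. Srsf2 (62 and 87 reads), Ddx39b (68.2 and 70.7 CPM) and the speckle scaffold gene Son (53.7 and 81.7 CPM) followed. Per kilobase Pnisr had 45.4 and 3.29 CPM by name and 1.60 and 3.29 by exon position, where Clk1, a kinase of these proteins, had 1.19 and 1.64 and Luc7l3 5.67 and 6.32.

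The genes around the locus had few reads. Of 6 listed neighbours 3 were tested, with 11 to 22 reads each in either library. By the binomial test 0 were called, also at an unadjusted p of 0.05, beside 3.36% of all genes tested that were called. With 3 genes tested, nothing is read from this count. Fbxl4 had 20.3 and 17.9 CPM, Ccnc 16 and 21.9 CPM and Tstd3 16 and 14.9 CPM. Usp45 had 2 and 1 reads, Faxc had 1 read in each library, and Prdm13 had none. Per kilobase Fbxl4, Ccnc and Tstd3 had 7.04 to 15.6 CPM in either library, and Coq3 by exon position had 101 and 141. The Coq3 values divide all its reads, most of them on the single-exon model, by the length of the full transcript. Without division by length, the spliced Coq3 models alone had 69.7 and 54.8 CPM.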

How the data were processed

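Long-read RNA-seq of 2 heart libraries was analysed. For each library the authors deposited a table of raw read counts, 1 row a model, and a file of the models' exons. Per the file headers, new models come from TALON, and the deposited text names mm10 and GENCODE M21. No source used here names the aligner or the filters. The counts were not normalized. Spike-in reads (10668 and 15975) were left out.

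Gene reads were the sum over all models of a name, and CPM was computed per 1000000 mouse reads, with a pseudocount of 1 CPM in log2 ratios of lists. Ratios of the 10 genes come from reads with exact intervals. For counts by exon position, each model went to the gene with the largest exon overlap on its strand. Genes with 10 or more reads were tested by an exact two-sided binomial test, and model shares by a two-sided Fisher's exact test from 20 reads in each library, both with Benjamini-Hochberg adjustment at 0.05 (scipy 1.17.1). With 1 group of 2 libraries no residual spread exists for a count model. The binomial and Fisher tests therefore hold counting error only. The summed chi-square between libraries was 2.58 per gene. The binomial test was run on simulated counts at the depth of these libraries, with 8820 genes tested. It called 84% of 50 genes raised 4-fold and 28% of 50 raised 2-fold. It called 33.3% of 42 lowered to 0.5 times, 43.2% of 37 lowered to 0.25 times and 0.0231% of 8641 unchanged. The simulated counts held counting error only, and the real libraries differ by more than that. The simulation therefore does not give the rate of false calls in these libraries. edgeR 4.0.16 and DESeq2 1.42.0 gave scaling factors in R 4.3.3.

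Near-identical transcripts were sought with blastn 2.17.0 (90% identity, 200 bases). Sequences come from the GENCODE M21 transcripts. The listed name Fdx2 was matched as Fdx1l, a RefSeq synonym. All 10 members were named. Of each list, up to 6 genes with the highest mean CPM, the called genes (1 is not reported here) and those with no reads were named, and of each member the most read model and the main models with 5 or more reads. Hpdl, Coq8b, Coq10b, Luc7l3, Clk1 and the neighbours Usp45 and Faxc were chosen after their values were seen, as were the motifs and the exon-level counts of Coq2, Coq8a, Coq9 and Coq10a. The members and lists were chosen with earlier results of these data known.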

Additional observations from a re-analysis of the deposited data

Results flagged for a closer look

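Reads on the strand opposite the 10 genes lie outside the counts reported, and those above the 3 reads that a count of 0 allows are given as values. Annotated genes on the opposite strand overlap exons of Coq9 (Ciapin1, 91 reads in replicate 1 and 102 in replicate 2), Coq4 (Trub2, 14 and 19 reads) and Coq6 (Fam161b, 5 reads in replicate 2). New models opposite Coq10a had 5 reads in replicate 2 and 0 in replicate 1. New models opposite Pnisr had 5 reads in replicate 2 and 1 in replicate 1. None of these reads entered the levels of the 10 genes.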

How the results depend on the processing

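Of the 10 genes 3 were called by name. With a minimum of 50 reads 5 were called (Coq2, Coq3, Coq5, Coq9 and Pnisr, with 338 of 4032 genes called). Annotated models only gave 0, beside 3.16% of all genes tested that were called. Leaving out genomic and incomplete models gave 1 (Coq2), beside 3.1%. Models of 2 or more exons only gave 0, beside 2.57%. The other settings gave 2 or 3. The genes were chosen with these data known, so nothing is read from these counts. The log2 ratio of the pooled Pnisr and Coq3 reads was 0.51, 0.57 with TMM or DESeq2 scaling, -0.21 with annotated models only, -0.19 without genomic and incomplete models and -0.076 with models of 2 or more exons only. The last 3 settings leave out the single-exon model. The share of the most read model differed in 1 gene, in 2 (Coq3 and Pnisr) with 10 reads in each library and in 0 without genomic and incomplete models, where 2 of 3472 genes were called. Counting by exon position and models of 2 or more exons were chosen after seeing the data. With annotated models only, the level of Coq8a by name, 727 CPM, became 575 CPM, that of Coq3 went from 221 to 58.8 CPM and that of Pnisr from 111 to 4.94 CPM. The other 7 moved by less than the spread of the libraries. By exon position Coq3 stood at 321 ± 75.9 CPM (SD, n = 2), so 58.8 CPM lies outside that spread. No call could be made without a replicate, since 1 library is then left. No paired analysis was possible because the series has 1 group. At their depth the log2 ratios of Coq4 (-1.45 to 0.52) and of Pnisr by exon position (-0.49 to 2.86) have the wide intervals given.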
